A study of Homo sapiens with 12 samples.

Results

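The mitochondrial genome of human cells carries 37 genes, and all of them were in the count tables: 13 mRNAs, 2 rRNAs and 22 tRNAs. They were taken as every gene whose name starts with MT-, out of 60645 gene names in all. Of the 20377 genes with enough counts to be tested, 25 were mitochondrial: the 13 mRNAs, the 2 rRNAs and 10 of the 22 tRNAs. The other 12 tRNA genes held too few counts for a test, and their values are given as counts.

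The RNA came from an ARID1A knockout of HEK-293T, a human line from embryonic kidney that carries SV40 large T antigen. ARID1A is the large subunit that gives one form of the BAF (SWI/SNF) chromatin remodeller its DNA binding, and the labels do not say whether the knockout line is 1 clone. All 6 groups shared the knockout. Cells received an empty vector ("no ARID1A"), wild-type ARID1A ("WT") or ARID1A without the IDR1b stretch ("ΔIDR1b"), each time together with a further empty vector or with a plasmid for EWS-FLI1, the fusion oncoprotein of Ewing sarcoma. The labels give 2 µg of the EWS-FLI1 plasmid and 48 h of growth afterwards. The design asks what IDR1b contributes to transcription under EWS-FLI1. Each group had 2 libraries of polyA RNA, numbered repeats 1 and 2, and nothing says that the repeats were separate cultures, so p-values measure only the spread between these libraries, which may be technical.

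Mitochondrial genes are transcribed as long precursors from both strands of a circular genome. The tRNAs lie between the other genes. Cutting them out at both ends (by the mitochondrial RNase P and by ELAC2) frees the mRNAs and rRNAs. Most of these then receive short polyA tails. The mRNAs encode membrane subunits of the respiratory chain: the ND genes of complex I (NADH dehydrogenase), MT-CYB of complex III, the CO genes of complex IV (cytochrome c oxidase) and the ATP genes of the ATP synthase. All are read from 1 strand except MT-ND6. The rRNAs build the mitochondrial ribosome, and the tRNAs serve its translation.

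Gene borders set what could be counted here. A fragment was counted only if it could be assigned to the exons of 1 gene, and many neighbours touch or overlap. The overlap of the ATP synthase genes MT-ATP8 and MT-ATP6 (46 bases) and that of the complex I genes MT-ND4L and MT-ND4 (7 bases) are shown. Fragments touching them could be lost to both genes. The capitals mark the shared bases, on the + strand of GRCh38, chrM:8515-8584 and chrM:10748-10778.
MT-ATP8 and MT-ATP6: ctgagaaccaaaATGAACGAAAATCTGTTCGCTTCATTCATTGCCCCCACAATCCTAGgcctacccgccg
MT-ND4L and MT-ND4: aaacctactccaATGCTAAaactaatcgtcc
In each, the capitals open with the ATG start codon of the downstream gene and close with the stop codon of the upstream one. The gene models of 6 mRNAs, MT-ND1, MT-ND2, MT-CO3, MT-ND3, MT-ND4 and MT-CYB, end on an incomplete stop codon (TA in MT-ND1, T in the others), which the polyA tail completes in the cell.

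The tRNA genes MT-TL1, MT-TN, MT-TC and MT-TY are shown because each differed in all 4 comparisons with cells without ARID1A below, and MT-TG and MT-TR because they are the neighbours of MT-ND3. The anticodon is in capitals, and the sequences are DNA letters read 5′ to 3′ on the gene's own strand. MT-TL1 carries leucine and lies at chrM:3230-3304 on the + strand, between MT-RNR2 and MT-ND1. MT-TN carries asparagine (chrM:5657-5729), MT-TC cysteine (chrM:5761-5826) and MT-TY tyrosine (chrM:5826-5891), and these lie next to each other on the − strand between MT-ND2 and MT-CO1. MT-TG carries glycine (chrM:9991-10058) and MT-TR arginine (chrM:10405-10469), and they flank MT-ND3 on the + strand.
MT-TL1: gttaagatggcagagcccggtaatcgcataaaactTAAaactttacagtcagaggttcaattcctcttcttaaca
MT-TN: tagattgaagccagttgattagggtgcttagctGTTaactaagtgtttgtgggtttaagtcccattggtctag
MT-TC: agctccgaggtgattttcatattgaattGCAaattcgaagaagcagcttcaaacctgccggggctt
MT-TY: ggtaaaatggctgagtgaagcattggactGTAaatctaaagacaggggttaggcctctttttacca
MT-TG: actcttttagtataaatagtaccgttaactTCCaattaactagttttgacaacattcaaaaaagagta
MT-TR: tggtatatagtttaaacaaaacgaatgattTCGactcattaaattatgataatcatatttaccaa
All 37 genes had the same position in GENCODE 29, the source of these sequences, as in the count tables.

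The libraries held between 11702251 and 14445379 counted fragments. Levels are given as CPM (counts relative to the library's total after TMM scaling, set to 1e+06) and as CPM per kb of gene where genes are compared. ARID1A itself was at 147 to 164 CPM in the 4 libraries without added ARID1A and at 1839 to 2873 CPM in the other 8. FLI1, which the fusion transcript carries in part, was at 1686 to 3669 CPM with EWS-FLI1 and at 0 to 0.146 CPM without, so the libraries labelled with an added gene had more of its RNA. ARID1A RNA remained in the knockout, so its level checks the added ARID1A and not the knockout. Of 6 markers of the HEK-293T line, 5 were above 1 CPM in every library (VIM, KRT8, KRT18, PAX2, NEFL), and NEFM was at 0 to 0.0746 CPM. These 6 summed to 930 to 1053 CPM without ARID1A, 1096 to 1187 with WT and 824 to 948 with ΔIDR1b. Of 6 markers of other cell types, PTPRC and PECAM1 stayed at or under 0.224 CPM, while COL1A1 was at 72.9 to 104.8 CPM, highest with ΔIDR1b. The 6 markers of other cells summed to 80.5 to 85.7 CPM without ARID1A, 78.7 to 98.4 with WT and 101.2 to 111.6 with ΔIDR1b, and the part of either sum in the results was not tested.

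Mitochondrial genes took between 1.75% and 2.40% of all counts per library. The mean share was 2.25% ± 0.0148 (SD, n = 2) without ARID1A and 2.15% ± 0.253 with EWS-FLI1 in addition. With WT it was 1.90% ± 0.211 under the empty vector and 2.15% ± 0.361 under EWS-FLI1, and with ΔIDR1b 1.99% ± 0.148 and 2.15% ± 0.313. Under the empty vector both libraries without ARID1A (2.24 and 2.26%) lay above all those with WT (2.05 and 1.75%) and ΔIDR1b (1.88 and 2.09%). Under EWS-FLI1 the states overlapped, and no difference in the total was tested. In bulk RNA, fewer cells or genome copies with the RNA and less RNA per copy cannot be told apart. The make-up differed too. Without ARID1A, rRNAs took 30.9 and 30.4% of the mitochondrial counts under the empty vector, and 35.3 and 35.1% under EWS-FLI1. With WT they took 29.6 to 31.1%, a range that holds the empty-vector values without ARID1A, and with ΔIDR1b 23.4 to 25.4%. The tRNA genes took 0.232 to 0.255% without ARID1A, 0.550 to 0.788% with WT and 0.534 to 0.689% with ΔIDR1b, so every library with added ARID1A lay above all 4 libraries without.

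Per kb of gene, levels differed widely although the genes of a strand share their precursor. In the cells without ARID1A under the empty vector MT-CO1 led at 4198 ± 0.373 CPM per kb (SD, n = 2), then MT-RNR2 at 3941 ± 44.7 and MT-ND4 at 2677 ± 58.3. MT-CO2 followed at 1345 ± 3.17. A middle class held MT-RNR1 (953 ± 14.9), MT-CYB (931 ± 8.45), MT-ND4L (910 ± 147), MT-ATP6 (893 ± 28.3) and MT-ND6 (890 ± 6.56). The libraries of MT-ND4L spanned this whole class and those of MT-ATP6 took in those of MT-ND6, while MT-RNR1, MT-CYB and MT-ND6 did not overlap one another. MT-ND5 (635 ± 3.32) and MT-CO3 (567 ± 27.3) were lower, and MT-ND2 and MT-ND1 were close to each other at 388 ± 0.527 and 378 ± 19.4 CPM per kb. MT-ND3 (78.1 ± 28.4) and MT-ATP8 (27.1 ± 3.19) were lowest, and these are the shortest mRNAs apart from MT-ND4L. The lead of MT-CO1, MT-RNR2, MT-ND4 and MT-CO2 held in all 6 groups, with MT-RNR2 first in 3 of them. The plot of levels in each library shows that the order of the middle class, and above all the places of MT-ND1 and MT-CYB, moved with the ARID1A state.

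The main question for these genes was how cells given WT or ΔIDR1b differed from cells left without ARID1A. In both, and under both vectors, the complex I mRNA MT-ND1 was higher, the complex III mRNA MT-CYB was lower, and the tRNA genes MT-TC and MT-TY were higher. The rRNA MT-RNR2 was lower with ΔIDR1b, also when set directly against WT. Calls are edgeR quasi-likelihood tests with a p under 0.05 after Benjamini-Hochberg adjustment over all 20377 genes.

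Among the 13 mRNAs, WT against no ARID1A gave 2 higher and 3 lower under the empty vector, where 11.7% of all genes tested were called (6.5% higher, 5.19% lower). Under EWS-FLI1 it gave 6 higher and 1 lower, beside 18.1% of all genes (9.72% higher, 8.36% lower). ΔIDR1b against no ARID1A gave 3 higher and 4 lower under the empty vector, beside 33.3% of all genes (16.4% higher, 16.8% lower), and 7 higher and 1 lower under EWS-FLI1, beside 35.9% (18.1% higher, 17.9% lower). The median log2 fold change of the 13 mRNAs in these 4 comparisons was 0.04, 0.42, 0.08 and 0.42, and that of all genes lay between −0.02 and 0.02. These counts rest on single libraries in part: without a no-ARID1A or WT library the mRNA count of WT under the empty vector was 2 or 3 instead of 5. Under EWS-FLI1 it was 2 without repeat 2 of no ARID1A and 3 without repeat 1 of WT, instead of 7, and the ΔIDR1b counts went down to 4 and 5. In DESeq2 13.7%, 20.4%, 31.1% and 33.6% of all genes were called in the 4 comparisons, and in edgeR with the repeat numbers as a block within each vector 17.7%, 23.8%, 37.6% and 40%. The calls of MT-ND1, MT-TC and MT-TY in all 4 comparisons held under each of 20 alternative settings, and those of MT-CYB did so in all but ΔIDR1b under EWS-FLI1.

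**Figure D1:**
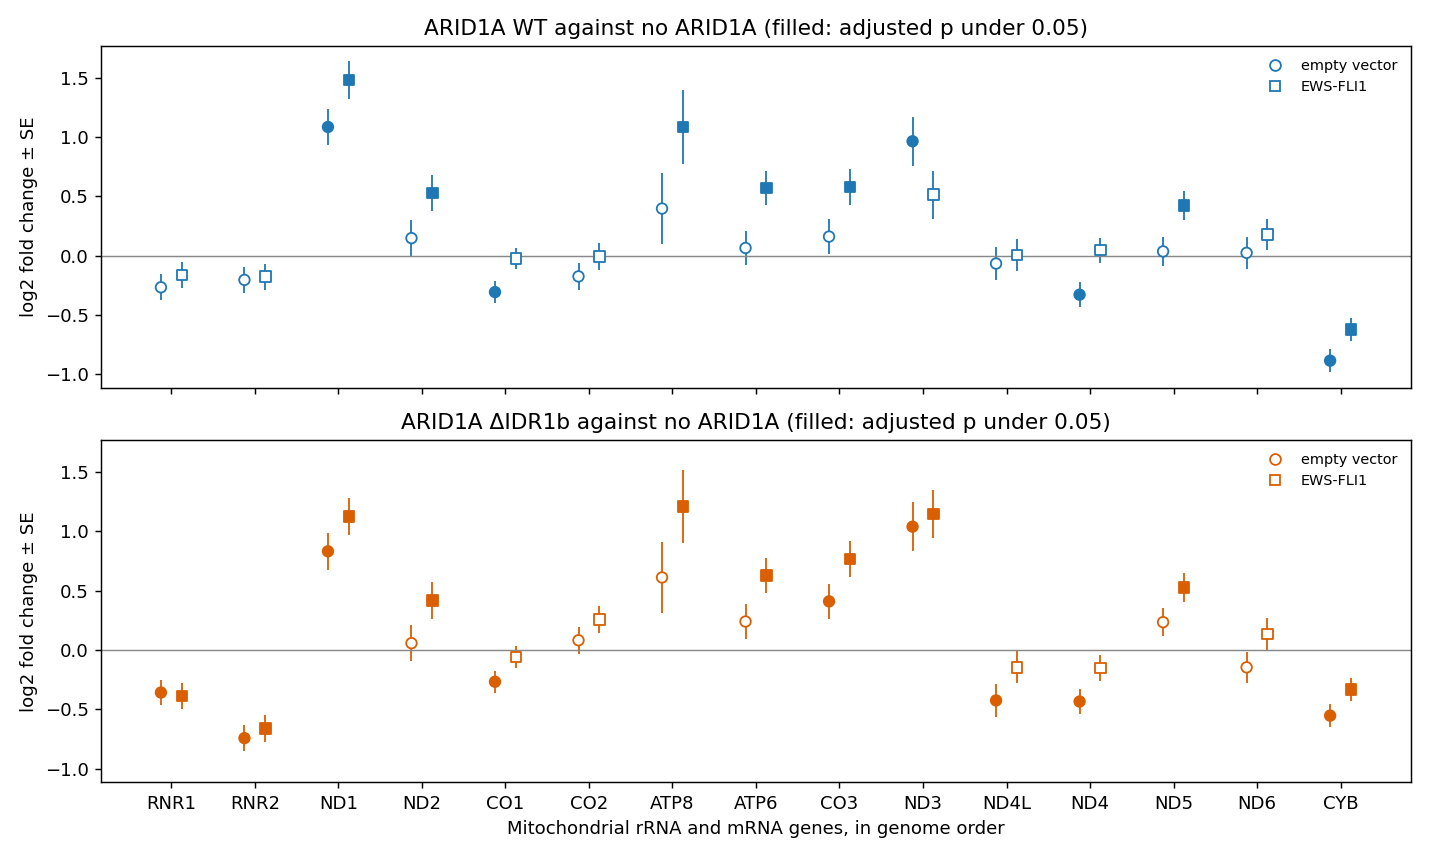
log2 fold change ± SE against cells without ARID1A for the 2 rRNAs and 13 mRNAs in genome order, WT in the upper panel and ΔIDR1b in the lower, circles with the empty vector and squares with EWS-FLI1. Filled symbols have an adjusted p under 0.05; MT-ND1 is the only gene filled above 0 and MT-CYB the only one filled below 0 in all 4 comparisons.

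MT-ND1 encodes a core membrane subunit of complex I. It was at 348 and 374 CPM in the no-ARID1A libraries with the empty vector and at 380 and 303 with EWS-FLI1. With WT it was at 924 and 608 CPM under the empty vector and at 1103 and 805 under EWS-FLI1, and with ΔIDR1b at 565 and 719 and at 876 and 616. Every library with added ARID1A was above every library without. The fold was 2.12 (log2 1.09, SE 0.15, adjusted p 9.7e-06) for WT with the empty vector and 2.79 (1.48, SE 0.16, adjusted p 2.34e-08) with EWS-FLI1. For ΔIDR1b it was 1.78 (0.83, SE 0.15, adjusted p 7.31e-05) and 2.18 (1.13, SE 0.16, adjusted p 6.55e-07).

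MT-ND3, a short complex I mRNA between MT-TG and MT-TR, was at 33.99 and 20.1 CPM without ARID1A and at 40.9 and 34.6 with EWS-FLI1 in addition. It was at 62.0 and 43.5 CPM with WT and at 67.9 and 40.03 with WT and EWS-FLI1. ΔIDR1b gave 59.8 and 51.4 CPM, and 98.6 and 68.5 with EWS-FLI1. Only repeat 2 of WT with EWS-FLI1 lay inside the range of the no-ARID1A libraries. The fold was 2.06 (log2 1.04, SE 0.20, adjusted p 0.00016) for ΔIDR1b under the empty vector and 2.21 (1.14, SE 0.20, adjusted p 2.81e-05) under EWS-FLI1. For WT it was 1.95 (0.96, SE 0.21, adjusted p 0.00179) under the empty vector, a call lost in DESeq2 (adjusted p 0.0702) and without repeat 2 of no ARID1A (0.111) or repeat 1 of WT (0.112). Under EWS-FLI1 the WT value of 1.43 did not pass (adjusted p 0.0728), and passed with the repeats as a block within each vector (adjusted p 0.000937).

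The other complex I mRNAs moved less. MT-ND2 ranged from 328 to 417 CPM without ARID1A, 376 to 632 with WT and 378 to 598 with ΔIDR1b, and the states overlapped. It was called higher under EWS-FLI1, 1.44-fold with WT (adjusted p 0.014) and 1.34-fold with ΔIDR1b (adjusted p 0.0319), and neither call stood in DESeq2 (adjusted p 0.199 and 0.299), without repeat 2 of no ARID1A (0.23 and 0.344) or without repeat 1 of WT (0.211) or of ΔIDR1b (0.717). MT-ND5, the longest mRNA, behaved alike at 1.34-fold (adjusted p 0.0124) and 1.44-fold (adjusted p 0.000844) under EWS-FLI1. Its WT call was lost in DESeq2 (0.136), without repeat 2 of no ARID1A (0.241) and without repeat 1 of WT (0.132), and its ΔIDR1b call without repeat 2 of no ARID1A (0.0509). Under the empty vector MT-ND5 was not called, and with the block it passed for ΔIDR1b (log2 0.23, adjusted p 0.0168).

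MT-ND4 and MT-ND4L share 1 transcript in the cell. MT-ND4 was at 3632 and 3745 CPM without ARID1A under the empty vector, at 3132 and 2745 with WT and at 2563 and 2898 with ΔIDR1b. The libraries with WT and with ΔIDR1b overlapped, and all were below those without ARID1A. MT-ND4 was 1.26-fold lower with WT (log2 −0.33, adjusted p 0.0386) and 1.35-fold lower with ΔIDR1b (−0.43, adjusted p 0.00175). The WT call was lost without any 1 of the 4 libraries compared (adjusted p 0.0518 to 0.301). MT-ND4L was 1.34-fold lower with ΔIDR1b (−0.42, adjusted p 0.0154), a call lost in DESeq2 (0.145), without repeat 1 of no ARID1A (0.285) and without either ΔIDR1b library (0.0687 and 0.0786). Under EWS-FLI1 neither gene was called, with log2 fold changes from −0.15 to 0.05. The count ratio of MT-ND4 to MT-ND4L overlapped between the states, at 11.1 to 15.7, 11.1 to 12.8 and 10.9 to 14.4. MT-ND6, the sole mRNA of the other strand, was called in none of the 4 comparisons and had log2 fold changes from −0.15 to 0.18. Counting used no strand, so RNA of MT-ND6 and of the opposite strand cannot be told apart.

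MT-CYB encodes cytochrome b, the only mitochondrially encoded subunit of complex III. It was at 1056 and 1069 CPM without ARID1A and at 1113 and 920 with EWS-FLI1 in addition. With WT it was at 600 and 552 CPM, and at 698 and 622 with EWS-FLI1. ΔIDR1b gave 728 and 722 CPM, and 865 and 749 with EWS-FLI1. The 3 states did not overlap, with the libraries without ARID1A highest, ΔIDR1b between and WT lowest. The WT libraries were 1.85-fold lower under the empty vector (log2 −0.88, SE 0.10, adjusted p 1.34e-07) and 1.54-fold lower under EWS-FLI1 (−0.62, SE 0.10, adjusted p 2.4e-05). ΔIDR1b libraries were 1.47-fold lower (−0.55, SE 0.10, adjusted p 4.24e-05) and 1.26-fold lower (−0.33, SE 0.10, adjusted p 0.00793). The last of these calls was lost without repeat 1 of no ARID1A (adjusted p 0.269) or repeat 2 of ΔIDR1b (0.131).

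A ratio of 2 genes within a library does not depend on the scaling between libraries. MT-ND1 to MT-CYB, a pair chosen after its values were seen and described without a test, was 0.329 to 0.350 without ARID1A, 1.10 to 1.58 with WT and 0.777 to 1.01 with ΔIDR1b. MT-ND5 to MT-CYB was 1.01 to 1.09, 1.93 to 2.22 and 1.65 to 2.09. MT-ND1 to MT-RNR2, which lies upstream with MT-TL1 between them, was 0.0493 to 0.0614, 0.124 to 0.162 and 0.161 to 0.189. In each of the 3 ratios the 4 libraries without ARID1A lay within a narrow band, and all 8 with added ARID1A were above it. Among the libraries without ARID1A, those with EWS-FLI1 were the lower ones in MT-ND5 to MT-CYB (1.021 and 1.008, against 1.085 and 1.079) and in MT-ND1 to MT-RNR2 (0.0525 and 0.0493, against 0.0562 and 0.0614), and the vectors did not overlap there. In the plot of ratios these gaps are smaller than those to the other states.

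The complex IV mRNAs showed smaller differences. MT-CO1, the most abundant mRNA, was at 6474 and 6473 CPM without ARID1A under the empty vector, at 5740 and 4733 with WT and at 5251 and 5509 with ΔIDR1b. It was called 1.24-fold lower with WT (adjusted p 0.0253) and 1.203-fold lower with ΔIDR1b (adjusted p 0.023), and both calls were lost without either no-ARID1A library (0.112 and 0.131 for WT, 0.0874 and 0.0898 for ΔIDR1b). The WT call was lost without repeat 2 of WT too (0.351), and the ΔIDR1b call without either ΔIDR1b library (0.143 and 0.0528). Under EWS-FLI1 MT-CO1 had log2 fold changes of −0.02 and −0.06. MT-CO2 was called in none of the 4 comparisons, with log2 fold changes from −0.17 to 0.26, and passed for ΔIDR1b under EWS-FLI1 with the block (adjusted p 0.00672).

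MT-CO3 and the ATP synthase mRNAs lie next to each other and moved in the same direction. MT-CO3 was at 460 and 369 CPM without ARID1A under EWS-FLI1, at 725 and 515 with WT and at 859 and 552 with ΔIDR1b. It was 1.49-fold higher with WT (adjusted p 0.00607) and 1.70-fold higher with ΔIDR1b (adjusted p 0.000142) under EWS-FLI1, and 1.33-fold higher with ΔIDR1b under the empty vector (adjusted p 0.0336). The call in WT was lost in DESeq2 (0.141), without repeat 2 of no ARID1A (0.138) and without repeat 1 of WT (0.0928). That in ΔIDR1b under the empty vector was lost in DESeq2 (0.299), without either no-ARID1A library (0.0703 and 0.171) and without repeat 2 of ΔIDR1b (0.218). MT-ATP6, subunit a of the ATP synthase, was 1.49-fold higher with WT (adjusted p 0.00466) and 1.55-fold higher with ΔIDR1b (adjusted p 0.000828) under EWS-FLI1. DESeq2 called neither (0.12 and 0.0632), and the calls were lost without repeat 2 of no ARID1A (0.111, WT) or repeat 1 of ΔIDR1b (0.0905).

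MT-ATP8, a small membrane subunit of the ATP synthase, had 41 to 188 counts per library, and 46 of its 207 bases lie in MT-ATP6. It was at 4.94 and 3.54 CPM without ARID1A under EWS-FLI1, at 11.7 and 6.28 with WT and at 13.3 and 6.38 with ΔIDR1b. It was called 2.12-fold higher with WT (adjusted p 0.0128) and 2.32-fold higher with ΔIDR1b (adjusted p 0.00226), calls lost without repeat 2 of no ARID1A (0.155 and 0.0504) or without repeat 1 of WT (0.264) or of ΔIDR1b (0.223). Under the empty vector neither ATP gene was called, and with the block both passed for ΔIDR1b (adjusted p 0.0362 for MT-ATP8 and 0.0231 for MT-ATP6).

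The rRNAs were lower with ΔIDR1b. MT-RNR2, the large-subunit rRNA, was at 6194 and 6095 CPM without ARID1A and at 7240 and 6153 with EWS-FLI1 in addition. WT libraries had 5773 and 4901 CPM, and 6873 and 4975 with EWS-FLI1, while ΔIDR1b had 3420 and 3927, and 4631 and 3835 with EWS-FLI1. All 4 ΔIDR1b libraries were below the other 8. Against no ARID1A, MT-RNR2 was 1.67-fold lower under the empty vector (log2 −0.74, SE 0.11, adjusted p 3.44e-06) and 1.58-fold lower under EWS-FLI1 (−0.66, SE 0.11, adjusted p 1.78e-05). WT gave log2 fold changes of −0.20 (adjusted p 0.254) and −0.18 (adjusted p 0.292). MT-RNR1, the small-subunit rRNA and the first gene after MT-TF, was 1.28-fold lower (adjusted p 0.0105) and 1.31-fold lower (adjusted p 0.00513) with ΔIDR1b. These calls were lost without repeat 1 of no ARID1A (0.0651 and 0.276), and without repeat 2 of ΔIDR1b under the empty vector (0.138) or repeat 1 under EWS-FLI1 (0.168). With the block, WT under the empty vector passed for both rRNAs (adjusted p 0.0187 for MT-RNR1 and 0.0456 for MT-RNR2).

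Of the 5 tRNA genes with the most counts, 4 (MT-TL1, MT-TN, MT-TC and MT-TY) were called higher in all 4 comparisons, by 1.81-fold to 5.98-fold, and MT-TP in 1 of them. Of all genes tested, 6.5% and 9.72% were called higher with WT and 16.4% and 18.1% with ΔIDR1b, under the empty vector and EWS-FLI1. A tRNA gene leaves little room for a fragment: the stretch free of neighbouring genes was 77 bases at MT-TL1, 105 at MT-TN, 96 at MT-TC and 77 at MT-TY, and the labels give a library fragment size of 370 to 420 bases without saying whether adaptors are included. Mature tRNAs carry no polyA tail, and no strand was used in counting, so RNA of the tRNA and of the opposite strand cannot be told apart. At 5 tRNA genes there were at least 10 counts in every library (MT-TL1, MT-TN, MT-TC, MT-TY and MT-TP), and they held between 523 and 2543 counts together. The other 17 held between 7 and 258 counts together.

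MT-TC was at 12.2 and 7.09 CPM without ARID1A and at 11.6 and 8.63 with EWS-FLI1 in addition. It was at 58.7 and 32.7 CPM with WT, and at 63.8 and 28.2 with EWS-FLI1. ΔIDR1b gave 32.1 and 31.8 CPM, and 50.02 and 37.0 with EWS-FLI1. All libraries with added ARID1A lay above the no-ARID1A range. The fold was 4.74 (log2 2.25, SE 0.27, adjusted p 4.49e-07) and 4.55 (2.19, SE 0.27, adjusted p 4.68e-07) for WT under the empty vector and EWS-FLI1. For ΔIDR1b it was 3.32 (1.73, SE 0.27, adjusted p 6.97e-06) and 4.30 (2.10, SE 0.27, adjusted p 2.19e-07).

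MT-TY, whose gene shares 1 base with MT-TC, was at 1.79 to 4.59 CPM in the libraries without ARID1A, at 9.84 to 17.8 with WT and at 9.49 to 16.1 with ΔIDR1b. Its folds were 5.98 (adjusted p 1.32e-06) and 3.74 (adjusted p 5.27e-05) for WT and 4.13 (adjusted p 1.16e-05) and 3.87 (adjusted p 9.71e-06) for ΔIDR1b, under the empty vector and EWS-FLI1. MT-TN was at 1.64 to 5.45 CPM, 4.99 to 22.5 and 6.35 to 18.4 in the 3 states. Repeat 2 of WT with EWS-FLI1, at 4.99 CPM, was the only library with added ARID1A inside the no-ARID1A range. MT-TN was called in all 4 comparisons with folds from 2.86 to 5.92. The WT call under EWS-FLI1 (adjusted p 0.00661) was lost in DESeq2 (0.137), without repeat 2 of no ARID1A (0.0778) and without repeat 1 of WT (log2 0.06, adjusted p 0.936), and the ΔIDR1b call under EWS-FLI1 in DESeq2 (0.0766).

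MT-TL1, directly upstream of MT-ND1, was at 5.42 and 4.78 CPM without ARID1A and at 6.30 and 3.36 with EWS-FLI1 in addition. WT gave 19.2 and 12.8 CPM, and 26.0 and 14.9 with EWS-FLI1, while ΔIDR1b gave 6.86 and 11.6, and 16.1 and 10.8. All libraries with added ARID1A were above those without, repeat 1 of ΔIDR1b with the empty vector by the least. The fold was 3.13 (adjusted p 0.000172) and 4.22 (adjusted p 3.4e-06) for WT and 1.81 (adjusted p 0.0245) and 2.78 (adjusted p 0.000173) for ΔIDR1b. The 1.81-fold call was lost in DESeq2 (0.17), without either no-ARID1A library (0.0609 and 0.134) and without repeat 2 of ΔIDR1b (0.425). MT-TP, which carries proline and borders the control region, was higher with WT under EWS-FLI1 (1.84-fold, adjusted p 0.000192). It was not called with ΔIDR1b (log2 0.01 and 0.12), nor with WT under the empty vector (log2 0.40, adjusted p 0.101, and 0.0194 with the block).

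The 5 other tested tRNA genes, MT-TG, MT-TR, MT-TH, MT-TL2 and MT-TE, had 0 to 4 counts in every library without ARID1A. Libraries with added ARID1A alone took them past the filter, those of ΔIDR1b at all 5 and also those of WT at MT-TG. These genes therefore had to differ. Their counts are given as a description, and neither their number nor the order of the states is read as a result. MT-TG had 1, 3, 3 and 0 counts in the 4 libraries without ARID1A, 18, 9, 9 and 17 with WT and 42, 36, 56 and 60 with ΔIDR1b. MT-TR had 1, 0, 0 and 0 counts, then 3, 9, 6 and 13, and 24, 21, 53 and 36. At both, the ΔIDR1b libraries, which sufficed to enter them in the test, held the most counts. MT-TL2 had 0 counts in all 4 libraries without ARID1A, 1 to 7 with WT and 11 to 27 with ΔIDR1b. MT-TH had 0 to 4, 0 to 14 and 15 to 35 counts, and MT-TE 0 to 2, 2 to 3 and 4 to 19.

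The 12 untested tRNA genes (MT-TF, MT-TV, MT-TI, MT-TQ, MT-TM, MT-TW, MT-TA, MT-TS1, MT-TD, MT-TK, MT-TS2 and MT-TT) never passed 24 counts in a library. They summed to 4 to 9 counts per library without ARID1A, 17 to 43 with WT and 34 to 72 with ΔIDR1b. MT-TT, between MT-CYB and MT-TP, had 0 counts in the 4 libraries without ARID1A, 3 to 9 with WT and 9 to 24 with ΔIDR1b. MT-TK had 0 to 5 counts per library.

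**Figure D2:**
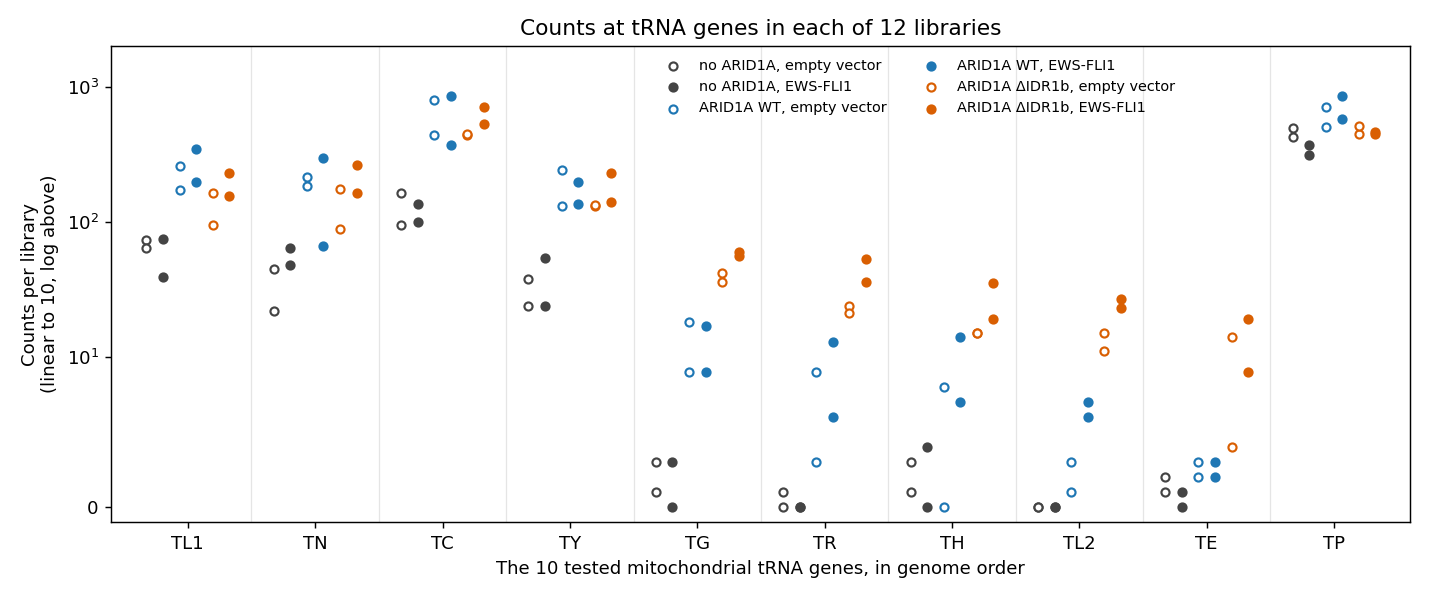
Counts at the 10 tested mitochondrial tRNA genes in each library (y axis linear up to 10 and logarithmic above), open with the empty vector and filled with EWS-FLI1. At MT-TC the 4 libraries without ARID1A hold 95 to 164 counts and the other 8 hold 373 to 849; MT-TG to MT-TE stay at 4 counts or fewer without ARID1A.

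Short nuclear genes went the other way. The 443 tested nuclear genes with under 300 bases of exon had a median log2 fold change of −0.48 and −0.58 for WT and −1.27 and −1.36 for ΔIDR1b against no ARID1A, under the empty vector and EWS-FLI1, while the 10529 genes of 4000 bases or more had 0.04, 0.05, 0.10 and 0.12. Nuclear genes under 300 bases took 0.120 to 0.129% of all counts without ARID1A, 0.0826 to 0.0954% with WT and 0.0664 to 0.0717% with ΔIDR1b. The part of such length differences between the states in the results for mitochondrial genes was not tested. RNAs made without a polyA tail were followed through RN7SL1 and RN7SL3, which overlapped between the states (RN7SL1 at 51.7 to 149.9 CPM without ARID1A, 93.0 to 112.8 with WT and 43.5 to 96.3 with ΔIDR1b). The third tested RNA of this list of 11, SNORD3A at up to 0.936 CPM, was called lower in WT under the empty vector (adjusted p 0.0276), where DESeq2 called 0 of the 3, and in ΔIDR1b under EWS-FLI1 (adjusted p 0.00464), where DESeq2 called 1. Nuclear pseudogene copies of mitochondrial genes summed to 620 to 948 counts per library. Of 402 such names 15 were tested. With WT 0 were called by edgeR or DESeq2 (4 at an unadjusted p under 0.05 under either vector), and with ΔIDR1b 3 were lower under the empty vector (MTND1P9, MTND5P2 and MTCYBP3) and 2 under EWS-FLI1 (MTND1P9 and MTND5P2), and DESeq2 called 2 under each vector. These shares of 20% and 13.3% were below the 33.3% and 35.9% of all genes. Against WT, MTND1P9 was lower with ΔIDR1b under both vectors (adjusted p 0.00505 and 0.00215) and MTND5P1 higher under EWS-FLI1 (adjusted p 0.0205), shares of 6.67% and 13.3% beside 24.5% and 18.6% of all genes, and DESeq2 called 1 and 2.

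Set directly against WT, ΔIDR1b cells had less MT-RNR2 and more MT-CYB under both vectors. MT-RNR2 was 1.45-fold lower under the empty vector (log2 −0.54, SE 0.11, adjusted p 0.000536) and 1.40-fold lower under EWS-FLI1 (−0.48, SE 0.11, adjusted p 0.0023). The second call was lost without repeat 1 of WT (adjusted p 0.0801) and when only the 4 libraries compared were fitted (0.0577). MT-CYB was 1.26-fold higher (0.33, SE 0.10, adjusted p 0.0127) and 1.22-fold higher (0.29, SE 0.10, adjusted p 0.0357). The first was lost without repeat 2 of WT (0.119) or either ΔIDR1b library (0.0734 and 0.0664), the second without repeat 2 of WT (0.139), repeat 1 of ΔIDR1b (0.345), either no-ARID1A library with the empty vector (0.0509 each) or when only the 4 libraries compared were fitted (0.199).

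Of the 13 mRNAs, 1 was called under the empty vector, where 24.5% of all genes were called (11.1% higher, 13.4% lower, and 24.9% in DESeq2), and 2 under EWS-FLI1, where 18.6% were (8.48% higher, 10.1% lower, and 19.4% in DESeq2). The count of 1 became 0 without either ΔIDR1b library, 3 without either WT library with EWS-FLI1 and 2 without repeat 1 of WT, either no-ARID1A library with the empty vector or either ΔIDR1b library with EWS-FLI1. The count of 2 became 4 without repeat 1 of WT or repeat 2 of ΔIDR1b, and 1 without repeat 1 of ΔIDR1b or either no-ARID1A library with the empty vector. The second mRNA called under EWS-FLI1 was MT-ND3, 1.55-fold higher with ΔIDR1b (adjusted p 0.0214), a call lost in DESeq2 (0.251), in the fit of the 4 libraries alone (0.0781), without repeat 2 of WT (0.233) and without repeat 1 of ΔIDR1b (0.364). With the repeats as a block within each vector the mRNA counts were 5 and 4, beside 30% and 24.8% of all genes. MT-ND1 was then lower with ΔIDR1b under both vectors (log2 −0.25, adjusted p 0.0317, and −0.36, adjusted p 0.00131) and MT-CO2 higher under both (0.26, adjusted p 0.0091, and 0.26, adjusted p 0.0104). MT-CO3 (0.26, adjusted p 0.0143) and MT-ND4L (−0.35, adjusted p 0.000799) passed under the empty vector, and MT-RNR1 (−0.22, adjusted p 0.0485) under EWS-FLI1.

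Among tRNA genes with many counts, MT-TL1 was 1.73-fold lower with ΔIDR1b than with WT under the empty vector (adjusted p 0.0275), a call lost in DESeq2 (0.206), without repeat 1 of WT (0.378) and without repeat 1 of ΔIDR1b (0.346). MT-TP was 1.69-fold lower under EWS-FLI1 (adjusted p 0.000958): the ΔIDR1b libraries were at 32.8 and 30.8 CPM and the WT libraries at 64.0 and 43.7. With the block MT-TN (adjusted p 0.00917), MT-TC (0.00639) and MT-TP (0.0129) were lower under the empty vector, and MT-TL1 (0.0171) under EWS-FLI1. MT-TR entered the test through ΔIDR1b, and MT-TG through libraries of ΔIDR1b and of WT. No test against WT is given for them.

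EWS-FLI1 left the mitochondrial genes with no call. Averaged over the 3 ARID1A states, 0 of 25 tested members were called by edgeR or by DESeq2, beside 0.466% of all genes in edgeR and 0.515% in DESeq2, and 3 had an unadjusted p under 0.05 (MT-RNR2, MT-TN and MT-ND3). Within the states the edgeR and DESeq2 counts were again 0, beside 0.0442% of all genes without ARID1A, 0.221% with WT and 0.172% with ΔIDR1b in edgeR, and 0.0442%, 0.26% and 0.214% in DESeq2. The members at an unadjusted p under 0.05 numbered 3 (MT-CO1, MT-ND3, MT-ND4), 3 (MT-ND1, MT-ATP6, MT-CO3) and 2 (MT-ND3, MT-ND4L). Log2 fold changes of the 13 mRNAs ran from −0.41 to 0.48 without ARID1A, −0.01 to 0.32 with WT and −0.01 to 0.59 with ΔIDR1b, with medians of −0.12, 0.20 and 0.18. SE values between 0.09 and 0.32 for these mRNAs set what could be seen.

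MT-ND3 had the lowest p of the members under EWS-FLI1 in the average over the states and with ΔIDR1b, while MT-CO1 had it without ARID1A and MT-CO3 with WT. Its values, given above, were higher with EWS-FLI1 in every pairing of libraries without ARID1A and with ΔIDR1b, and overlapped with WT. The averaged fold was 1.29 (log2 0.37, SE 0.12, adjusted p 0.253). With the block it was the 1 member called, both in the average (log2 0.36, adjusted p 0.000122, beside 1.14% of all genes) and in ΔIDR1b (0.57, adjusted p 0.000844, beside 0.535%). No member was called with the block without ARID1A or with WT, where 0.0834% and 0.584% of all genes were. Without repeat 2 of WT with EWS-FLI1, 4 members passed in the average (MT-RNR2, MT-TN, MT-ND3 and MT-ND4L) and 3 in WT (MT-RNR2, MT-ND1 and MT-CO3). Without repeat 1 of that group MT-TN passed in WT (log2 −1.57, adjusted p 0.00382), and without either of them MT-ND3 passed in ΔIDR1b (adjusted p 0.0327 and 0.031). Without repeat 1 of no ARID1A with the empty vector MT-ND3 passed in the average (log2 0.51, adjusted p 0.0263). In all 3 states repeat 1 with EWS-FLI1 had the larger mitochondrial share of counts, at 2.33% against 1.97% without ARID1A, 2.40% against 1.89% with WT and 2.37% against 1.93% with ΔIDR1b.

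**Figure D3:**
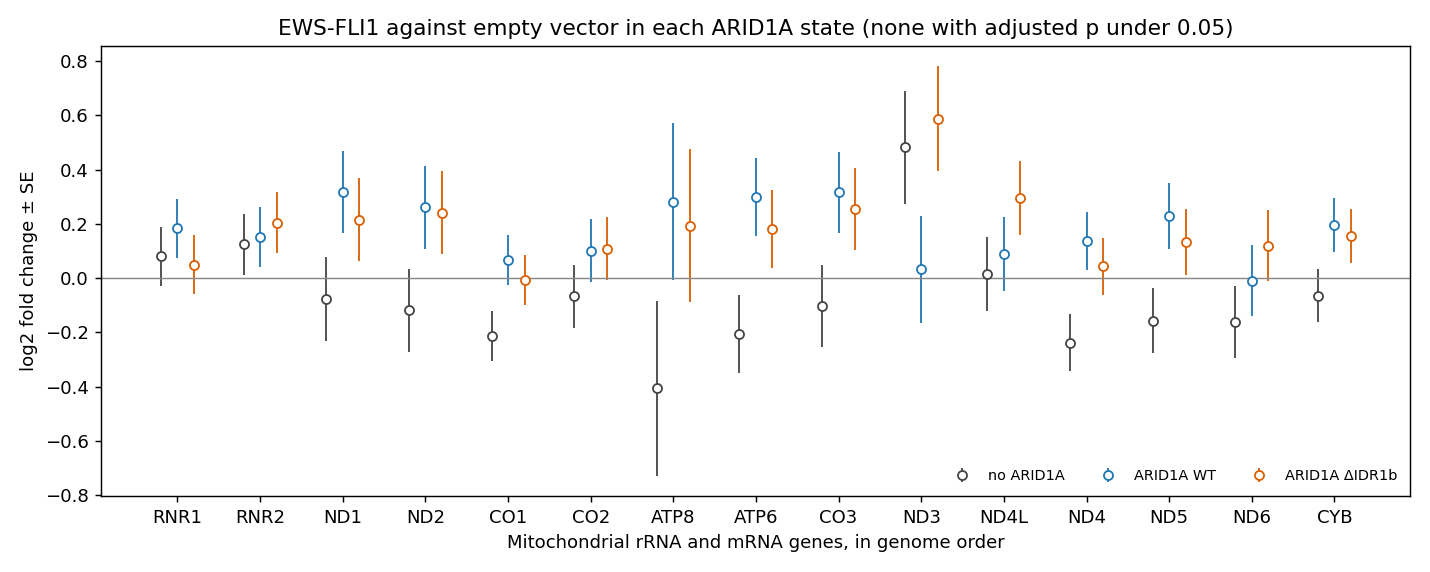
log2 fold change ± SE of EWS-FLI1 against the empty vector for the 2 rRNAs and 13 mRNAs in genome order, 1 point for each ARID1A state. All values lie between −0.41 and 0.59 and none has an adjusted p under 0.05; MT-ND3 is the highest point without ARID1A and with ΔIDR1b, and lies near 0 with WT.

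Whether the response to EWS-FLI1 differed between the states was tested as an interaction. Between WT and no ARID1A 0 members were called by edgeR or DESeq2, beside 0.0245% of all genes in edgeR and 0.0196% in DESeq2, and 5 had an unadjusted p under 0.05: MT-CO1, MT-ATP6, MT-ND4, MT-ND5 and MT-TP, all with the larger EWS-FLI1 value in WT. Between ΔIDR1b and no ARID1A, and between ΔIDR1b and WT, 0 were called by either tool and 0 had an unadjusted p under 0.05, beside 0.0196% and 0% of all genes in both tools. With the block 0 were called in all 3, beside 0.0785%, 0.0196% and 0.0491%. Without repeat 1 of WT with EWS-FLI1, MT-TN passed between WT and no ARID1A (log2 −2.51, adjusted p 0.00184), and so it did in the comparison of the ΔIDR1b response with that of WT (log2 2.20, adjusted p 0.0046). For MT-ND3 the interaction of ΔIDR1b and WT was a log2 value of 0.55 (SE 0.28). These comparisons share libraries with those of the states.

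The nuclear genes that serve the mitochondrial genome were looked up as fixed lists. Of 41 tested genes of mitochondrial transcription, replication and RNA processing, 5 were higher and 3 lower with WT under the empty vector, and 13 and 3 under EWS-FLI1. With ΔIDR1b 12 were higher and 7 lower, and 13 and 6 under EWS-FLI1. The medians over these 41 were 0.11 to 0.13, and the shares called, 19.5 to 46.3%, were above the 11.7 to 35.9% of all genes without a test of that difference. TRMT10C, a subunit of the mitochondrial RNase P that cuts the 5′ end of tRNAs, was higher in all 4 comparisons: 7.78 ± 0.612 CPM (SD, n = 2) without ARID1A against 17.0 ± 1.52 with WT (2.18-fold, adjusted p 9.62e-05) and 23.5 ± 3.43 with ΔIDR1b (3.02-fold, adjusted p 2.93e-08). Under EWS-FLI1 it was 2.42-fold and 3.36-fold higher (adjusted p 1.08e-05 and 6.2e-09). TWNK, the mitochondrial replicative helicase, was 2.09-fold higher with WT under EWS-FLI1 (adjusted p 1.29e-05). With ΔIDR1b TWNK was 3.16-fold and 3.61-fold higher (adjusted p 4.74e-10 and 4.45e-11).

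Among the genes that fell on this list were REXO2, a mitochondrial oligoribonuclease, and SLIRP, which binds mitochondrial mRNAs together with LRPPRC. REXO2 was 1.97-fold lower with ΔIDR1b under the empty vector (adjusted p 3.19e-07) and 2.14-fold lower under EWS-FLI1 (adjusted p 4.01e-08). With WT under EWS-FLI1 it was 1.45-fold lower (adjusted p 0.00307). SLIRP was 1.78-fold and 1.61-fold lower with ΔIDR1b, under the empty vector and EWS-FLI1 (adjusted p 0.000325 and 0.00197). FASTK was lower with WT, by 1.504-fold and 1.67-fold (adjusted p 0.00288 and 0.000161). Over both vectors FASTK was at 62.3 to 71.1 CPM without ARID1A, 36.1 to 51.2 with WT and 50.6 to 59.9 with ΔIDR1b. PPARGC1B, a coactivator of genes for mitochondria, was 2.02-fold higher with WT under the empty vector (adjusted p 0.000527). Its levels over both vectors were 8.83 to 11.57 CPM without ARID1A, 15.03 to 22.40 with WT and 22.48 to 24.73 with ΔIDR1b.

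Of 34 genes that charge or modify mitochondrial tRNAs, 3 were higher and 2 lower with WT under the empty vector, and 8 and 3 under EWS-FLI1. With ΔIDR1b 9 were higher and 5 lower, and 8 and 6. These shares of 14.7%, 32.4%, 41.2% and 41.2% stood beside 11.7%, 18.1%, 33.3% and 35.9% of all genes, the first and the last the nearest to it, and the difference was not tested. PARS2, the mitochondrial prolyl-tRNA synthetase, was 3.70-fold and 5.57-fold higher with ΔIDR1b (adjusted p 3.35e-07 and 3.21e-09), from 4.50 ± 2.03 to 16.7 ± 0.756 CPM under the empty vector. With WT under EWS-FLI1 it was 2.16-fold higher (adjusted p 0.00402). VARS2, the valyl-tRNA synthetase, was 2.83-fold to 3.05-fold lower in all 4 comparisons (adjusted p 0.000638 to 0.00409). TRIT1, which modifies the base next to the anticodon, was 1.94-fold and 1.83-fold lower with ΔIDR1b (adjusted p 5.59e-08 and 2.61e-07). Over both vectors TRIT1 was at 94.4 to 107.9 CPM without ARID1A, 76.3 to 92.8 with WT and 51.4 to 57.6 with ΔIDR1b.

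Nuclear subunits of the respiratory chain fell with ΔIDR1b. Of 72 tested, 2 were higher and 48 lower under the empty vector and 2 and 40 under EWS-FLI1, with medians of −0.44 and −0.37, beside 16.8% and 17.9% of all genes called lower. WT gave 3 higher and 3 lower under the empty vector, with a median of 0.05, beside 6.5% and 5.19% of all genes. Under EWS-FLI1 WT gave 2 higher and 12 lower, with a median of −0.12, beside 9.72% and 8.36% of all genes. In either direction 8.33% and 19.4% were called with WT, beside 11.7% and 18.1% of all genes, and the differences were not tested. Against WT, ΔIDR1b gave 0 higher and 51 lower under the empty vector and 0 and 22 under EWS-FLI1, beside 13.4% and 10.1% of all genes called lower. NDUFA11, an accessory subunit of complex I, was at 58.2 ± 6.51 CPM without ARID1A and 22.9 ± 0.2996 with ΔIDR1b (2.54-fold lower, adjusted p 3.04e-09). Over both vectors NDUFA11 was at 48.3 to 62.8 CPM without ARID1A, 35.0 to 45.5 with WT and 20.9 to 25.6 with ΔIDR1b. UQCRFS1, the Rieske protein of complex III, was higher in all 4 comparisons by 1.35-fold to 1.48-fold (adjusted p 0.00181 to 0.0137). Genes with 300 to 1000 bases of exon, a class of 2186, had a median of −0.58 for ΔIDR1b against no ARID1A under the empty vector, and the part of length in the respiratory chain result was not tested. EWS-FLI1 averaged over the states gave 0 called of the 41, 34 and 72 genes in edgeR and in DESeq2, with 3, 1 and 1 at an unadjusted p under 0.05.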

How the data were processed

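RNA from 12 libraries (6 groups of 2) was selected on oligo(dT) beads, fragmented and primed with random hexamers, per the labels' protocols. The authors' deposited values are whole-number counts per gene name: fragments with both ends aligned were assigned to exons with featureCounts 2.0.1 on GENCODE 41 (GRCh38.p13) without strand, per the file headers, so fragments that matched several places or genes were left out. STAR, SAMtools and edgeR appear in the submitters' processing notes without versions. Multiple placement can lower genes with nuclear copies.

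Here, edgeR 4.0.16 (R 4.3.3) was run on the counts of all 12 libraries: genes with low counts were removed with filterByExpr (minimum count 10, total 15), TMM scaling was applied, 1 mean was fitted per group, and quasi-likelihood tests were adjusted with the Benjamini-Hochberg method per comparison. All tests are two-sided. The fit was tested on simulated data. Totals of 11702251 to 14445379 counts put 3 counts at 0.208 to 0.259 CPM. Alternatives were DESeq2 1.42.0, 3 other scalings, no filter, fits of the compared libraries alone, repeat blocks and leaving out each library. Members and gene lists were chosen with earlier results of these data known, and the pairs of genes in ratios after their values were seen. All 37 members are accounted for. From the other lists, up to 2 genes per direction and comparison with the largest fold change among those called and at a mean of at least 1 CPM were named, except that pseudogenes and RNAs without polyA tails were named after their values were seen.

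The labels number the repeats but do not say that a number marks a shared batch. Over 11384 genes, deviations of same-numbered libraries from their group means correlated at 0.0889 to 0.184 among groups with the empty vector and 0.137 to 0.381 among those with EWS-FLI1, and at −0.205 to −0.00463 between the vectors, so the block was set within each vector and kept as an alternative.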

Additional observations from a re-analysis of the deposited data

How the results depend on the processing

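At the 20 tested members with at least 10 counts in every library, 29 of 55 calls were kept under each of the 20 alternatives, and none turned its direction under any of them. Of 1100 recomputed values 74 fell short of the threshold, 14 of them in DESeq2, 3 when only the libraries compared were fitted and the rest when a library was left out. Counts over all 25 tested members that moved by over 1.5 times were as follows. They include MT-TG, MT-TR, MT-TH, MT-TL2 and MT-TE, which passed the filter only through libraries with added ARID1A. These genes gave 1, 3, 4 and 5 of the calls of WT and ΔIDR1b against no ARID1A. Of the calls of ΔIDR1b against WT they gave 1 and 2. EWS-FLI1 averaged over the states had 0 called, 2 without the filter on low counts, and 1 with the replicate block across all libraries or within each vector. EWS-FLI1 with ΔIDR1b had 0, and 1 without the filter, with only the libraries compared and with the block within vector. WT against no ARID1A under EWS-FLI1 had 15, and 9 in DESeq2. ΔIDR1b against WT under the empty vector had 4, and 7 with upper-quartile scaling, 2 in DESeq2, 11 without the filter, 10 with only the libraries compared, 7 with the replicate block across all libraries and 12 within vector. Under EWS-FLI1 it had 6, and 3 with only the libraries compared and 10 with the block within vector. The causes were not tested. Leaving out 1 library in turn gave 6 to 13 for WT and 11 to 19 for ΔIDR1b against no ARID1A under the empty vector, and 6 to 17 and 13 to 21 under EWS-FLI1. It gave 1 to 11 and 4 to 10 for ΔIDR1b against WT, 0 to 4 for EWS-FLI1 averaged, 0 to 0 without ARID1A, 0 to 3 with WT, 0 to 1 with ΔIDR1b, and 0 to 1, 0 to 0 and 0 to 1 for the interactions. Where a library left its group with 1 sample, that sample was taken to vary like the other groups. The 2 repeats of a group differed unequally, with a chi-square per degree of freedom from 3.02 to 12.1. The lowest was no ARID1A and the highest WT, both under EWS-FLI1. Each gene was given 1 spread over all groups, which may be too small for comparisons with WT under EWS-FLI1. With 2 libraries a group and a common biological variation of 10.1%, small differences could not be seen, and at 17 of 22 tRNA genes the counts were too low in some libraries for more than a description.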
